A study of Homo sapiens with 6 samples.

Results

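The genes described here are 41 mesenchymal and extracellular matrix genes: transcription factors of the epithelial-mesenchymal transition (EMT), collagens, other matrix proteins, matrix-degrading proteases and their inhibitors, and 2 receptors. They were taken by name, and all 41 were measured, among 19775 genes in all. The array carried 125 probe sets for them, between 1 and 11 per gene, of 54613 probe sets that were not controls. Cells of IGROV1, an established human ovarian carcinoma line, were stained with the DNA dye Hoechst 33342 and sorted. The side population (SP) keeps little of the dye because membrane pumps export it, and the cells outside that gate (non-SP) retain it. Both groups came from the same untreated line, with 3 samples each, 1 array per sample, and both went through the dye and the sort. The line stands for 1 tumour and holds no stromal cells other than what grew in the culture, and the labels do not tell whether each sample was a culture of its own; the p-values therefore cover the variation among these arrays only, part of which may be technical. RNA was taken with a kit for small samples and amplified. In such bulk RNA, fewer cells of a type and less RNA per cell cannot be told apart.

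Epithelial cells that undergo EMT lose cell-cell adhesion and gain motility, under transcription factors of the SNAIL, TWIST and ZEB families that repress E-cadherin through E-box sequences. In tissue most fibrillar collagen, decorin, lumican and periostin are made by fibroblasts, whereas basement membrane collagen IV is also made by epithelial cells. Ovarian carcinoma cells are known for a mixed state in which epithelial keratins and E-cadherin stand beside vimentin.

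The regulatory sequence shown is the one between COL4A1 and COL4A2, because these genes encode the chains of the main collagen IV trimer and lie head to head. Their levels moved together across the arrays, in a split described below that 13.1% of all genes showed in the same direction. Whether this sequence has a part in that was not tested. The start sites of COL4A1 and COL4A2 are 127 bases apart, and the promoter windows (250 bases before to 50 after the start; RefSeq, GRCh38.p14) overlap by 226 bases. The COL4A1 window is chr13:110307108-110307407 on the minus strand and the COL4A2 window chr13:110307034-110307333 on the plus strand. Each is written 5′ to 3′ on its own strand, and capitals mark matches to a CCAAT box (CCAAT, or ATTGG on the other strand) and a GC box (GGGCGG or CCGCCC), motifs that do not overlap each other here.
COL4A1: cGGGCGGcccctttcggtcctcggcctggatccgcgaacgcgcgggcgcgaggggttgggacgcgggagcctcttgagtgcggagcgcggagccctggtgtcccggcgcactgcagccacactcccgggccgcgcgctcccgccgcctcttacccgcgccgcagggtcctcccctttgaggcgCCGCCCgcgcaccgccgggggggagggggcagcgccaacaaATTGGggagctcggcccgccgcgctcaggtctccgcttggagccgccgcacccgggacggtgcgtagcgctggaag
COL4A2: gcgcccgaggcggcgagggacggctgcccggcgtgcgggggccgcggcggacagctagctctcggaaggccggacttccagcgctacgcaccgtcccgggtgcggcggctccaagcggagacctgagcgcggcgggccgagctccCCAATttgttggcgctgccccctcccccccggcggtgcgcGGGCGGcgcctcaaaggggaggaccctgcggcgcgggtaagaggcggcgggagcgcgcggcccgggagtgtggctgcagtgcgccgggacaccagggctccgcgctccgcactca

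The COL4A1 window held 1 CCAAT match and 2 GC box matches, and the COL4A2 window 1 of each. Both matches of the COL4A2 window lie in the overlap and are the same sites as matches of the COL4A1 window, read on the other strand. They count for both genes in the numbers below. Of 27305 promoter windows of 300 bases, 35.7% held the CCAAT letters and 44.6% the GC box letters on either strand. Windows were matched for 26 of the 41 genes. Of these 26, 11 held the CCAAT letters, 19 the GC box letters and 4 a TATA box (TATAAA or TTTATA; 12% of all windows). The E-box CAGGTG (or CACCTG) lay in 3 of them, those of ZEB1, S100A4 and AXL, against 20.6% of all windows. A match is a run of letters in the window and not a measured binding site.

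Which of these genes gave a signal above background was read against the TrpnX control probe sets, which match no human transcript. The mean of the 3 TrpnX probe sets lay between 2.82 and 2.96 on the log2 scale over the 6 arrays, and the highest of them between 3.17 and 3.53. Of the 125 probe sets, 89 (71.2%) exceeded that mean on all 6 arrays, against 83.3% of all probe sets, and 80 exceeded the highest TrpnX probe set on all 6. Another 23 lay below the mean on all 6 arrays (18.4%, against 8.53% of all). This is a low bar: the B cell gene MS4A1 was above the mean on all 6 arrays as well. So were 4 of 5 endothelial markers, from CDH5 (6.26 to 6.97) down to EMCN (3.45 to 3.85). A level above the controls therefore does not by itself show that the line expresses a gene. Of the genes, 35 had at least 1 probe set above the mean on all arrays and 6 had none, namely SNAI2, TWIST1, COL5A2, COL6A3, POSTN and LUM. The 13 probe sets above on 1 to 5 arrays included 4, of FBN1, CALD1, COL5A2 and TIMP3, that were above on all SP arrays and missed on a single non-SP array each. That pattern was found in 3.2% of the 125 and 1.86% of all probe sets, and the opposite one in 0 of the 125 and 1.05% of all.

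**Figure D1:**
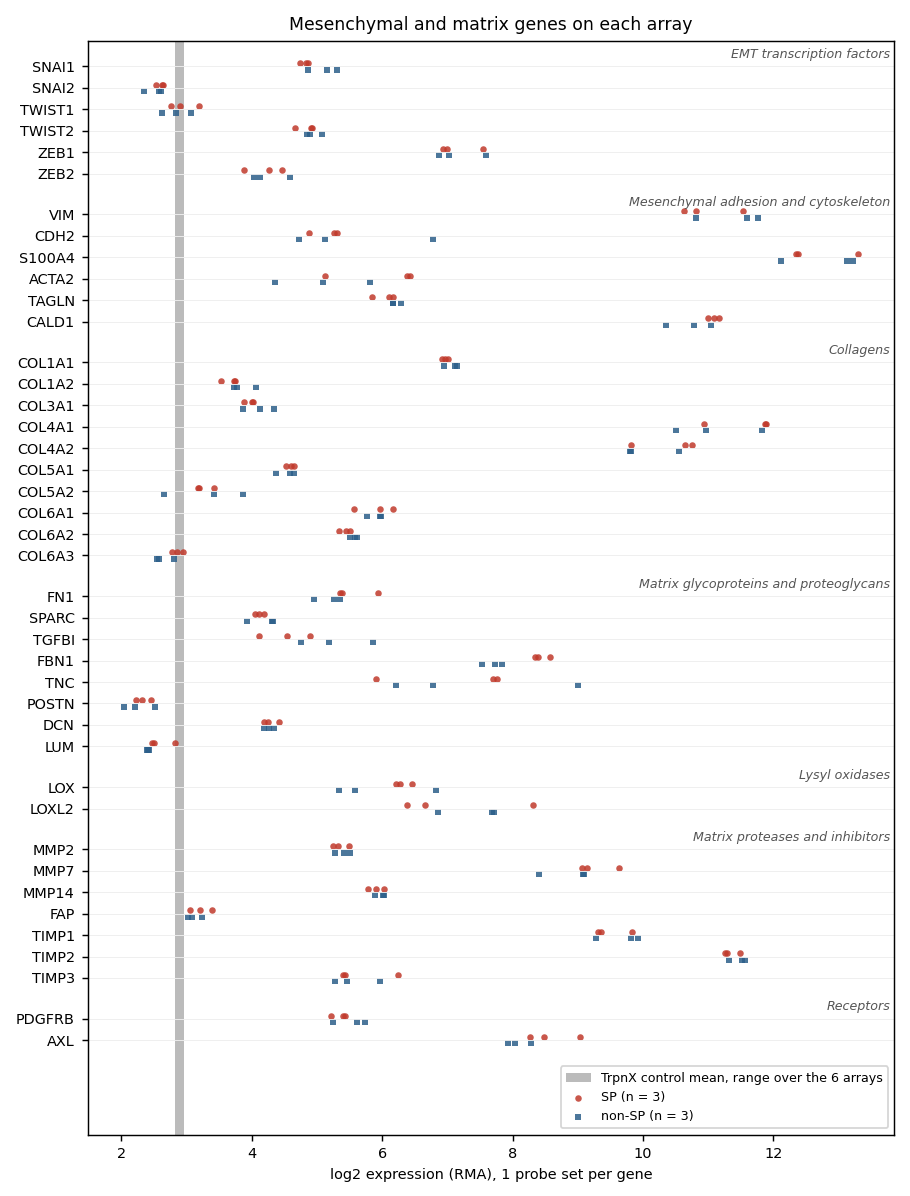
Log2 level (RMA) of the 41 genes on each array, with the probe set of the highest mean for each gene; circles are the 3 SP samples, squares the 3 non-SP samples, and the grey band is the TrpnX control mean (2.82 to 2.96). SNAI2 and POSTN lie below the band on all 6 arrays, and FBN1 is the gene above the band on every array whose SP values all lie above its non-SP values.

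The defining markers of the labelled cell type were present: all 9 ovarian carcinoma epithelial genes were above the TrpnX mean on all arrays, among them EPCAM (12.00 to 12.29) and the Müllerian lineage factor PAX8 (10.14 to 10.67). They were not all even between the groups. All SP values were higher for KRT7 (0.79, SE 0.18; limma, adjusted p = 0.451). They were lower for KRT8 (-0.71, SE 0.22; limma, adjusted p = 0.611) and EPCAM (-0.15, SE 0.11). Of 5 measured leukocyte markers 3 (CD14, LYZ and MS4A1) were above the mean on all 6 arrays, PTPRC was above it on 1 and CD3E on 0. The mean level of the 6 fibroblast markers ranged from 5.31 to 5.55 over SP samples and from 5.27 to 5.50 over non-SP samples. Of the 6, 5 were above the TrpnX mean on all arrays, and MFAP5 (9.49 to 10.73) stood far above the others. The mean level of the 5 smooth muscle and pericyte markers ranged from 5.94 to 6.07 over SP and from 5.75 to 5.94 over non-SP samples. The difference between these ranges came from DES (desmin), which differed by 1.21 (SE 0.33). Without it the mean of the other 4 ran from 5.49 to 5.64 in SP and from 5.56 to 5.72 in non-SP samples, and CSPG4, lower in all SP samples, differed by -0.39 (SE 0.12). The part of these marker levels in the differences below was not tested.

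Setting SP against non-SP samples asks whether cells that export the dye differ in their mesenchymal or matrix programme. In limma, with Benjamini-Hochberg adjustment over all 19775 genes, 0 of the 41 genes passed an adjusted p of 0.05, where 0.00506% of all genes did. At an unadjusted p under 0.05, FBN1 alone was higher in SP samples (1 of 41; 3.07% of all genes) and 0 were lower (3.71% of all genes). SP and non-SP values did not overlap for 2 genes on the higher side, FBN1 and LUM (4.88%; 4.78% of all genes), and for 2 on the lower side, TAGLN and COL6A2 (4.88%; 7.1% of all genes). At 41 genes these shares are near those of all genes. The 41 log2 differences, SP minus non-SP, ran from -0.75 for TGFBI to 0.89 for ACTA2, with 19 above 0, 22 below 0 and a median of -0.05, where the median over all genes was -0.02.

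The precision of these differences was uneven. Over the 35 genes above the controls, the half-width of the 95% interval, which limma gives without adjustment for the number of genes, ran from 0.27 to 1.97 with a median of 0.46. For 22 of the 35 the whole interval lay within a 2-fold change in either direction, and for the other 13 it reached beyond. These 13 were VIM, CDH2, S100A4, ACTA2, COL4A1, COL4A2, TGFBI, FBN1, TNC, LOX, LOXL2, MMP7 and AXL, so that for them a change of over 2-fold lies inside the interval.

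**Figure D2:**
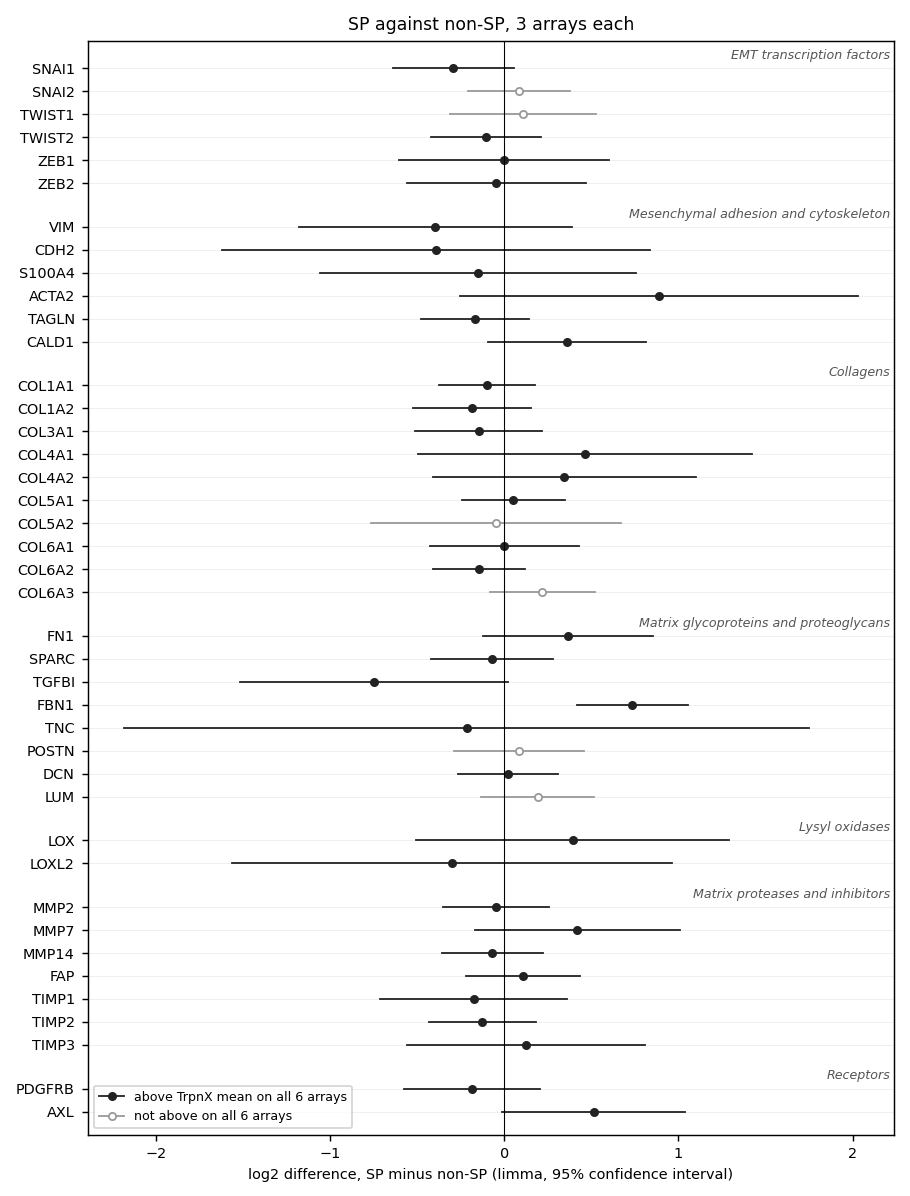
Log2 difference, SP minus non-SP, of the 41 genes by role, with the 95% confidence interval from limma (3 arrays against 3); open grey symbols are genes not above the TrpnX mean on all 6 arrays. The interval of FBN1 (0.42 to 1.05) is the one that lies wholly on one side of 0, and that of TNC (-2.18 to 1.75) is the widest.

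Among the EMT transcription factors, ZEB1, a zinc finger repressor of E-cadherin, was measured well above the controls, at 7.55, 6.99 and 6.93 in SP samples 1 to 3 and 6.87, 7.03 and 7.59 in non-SP samples 1 to 3. The groups overlapped throughout, and the difference (-0.0035) had an interval of -0.61 to 0.60. A second ZEB1 probe set (212758_s_at) ran between 6.93 and 7.37 and differed by 0.01, and a dimmer one (239952_at) by 0.41 (SE 0.27). SNAI1, a SNAIL repressor, gave 4.74, 4.83 and 4.86 in SP and 4.86, 5.15 and 5.30 in non-SP samples. The highest SP value and the lowest non-SP value met, and the difference was -0.29 (SE 0.15; limma, adjusted p = 0.79). TWIST2, a basic helix-loop-helix factor, gave 4.92, 4.66 and 4.91 in SP and 4.85, 4.89 and 5.08 in non-SP samples, with a difference of -0.11 (SE 0.13), and its second probe set differed by -0.09.

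SNAI2, the other main SNAIL factor, lay below the TrpnX mean on all 6 arrays, at 2.64, 2.62 and 2.54 in SP and 2.61, 2.35 and 2.58 in non-SP samples, so no difference could be read for it. TWIST1 was above the mean on 3 of 6 arrays (2.61 to 3.19). ZEB2, a close relative of ZEB1, was above it with 1 of its 5 probe sets (3.88 to 4.59, difference -0.05), and its other 4 were below on every array. For these 6 factors together, 2 differences were above 0 and 4 below, and 0 had an unadjusted p under 0.05 in limma. The 2 above 0 were those of SNAI2 and TWIST1, neither above the controls on all arrays.

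VIM, the intermediate filament protein of mesenchymal cells, was high in both groups, with 11.53, 10.81 and 10.64 in SP and 11.76, 10.81 and 11.59 in non-SP samples. The low values were those of SP samples 2 and 3 and non-SP sample 2, so that the groups overlapped, and the difference was -0.40 (SE 0.33, interval -1.18 to 0.39; limma, adjusted p = 0.903). S100A4, a calcium-binding protein tied to motility, followed the same samples, at 13.29, 12.34 and 12.37 in SP and 13.22, 12.12 and 13.13 in non-SP samples, with a difference of -0.15 (SE 0.38). CDH2 (N-cadherin) gave 5.30, 4.87 and 5.26 in SP and 5.12, 6.78 and 4.72 in non-SP samples. Non-SP sample 2 stood 1.48 above the next value and decided the sign: the difference was -0.39 (SE 0.51) with it and 0.23 without it, and the other CDH2 probe set differed by 0.14.

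The contractile genes of the list differed in both directions. ACTA2, smooth muscle actin, gave 5.12, 6.38 and 6.43 in SP and 5.10, 5.81 and 4.36 in non-SP samples, which put 2 SP samples above all others and left SP sample 1 among the non-SP values. This was the highest difference of the 41 genes (0.89, SE 0.48, interval -0.25 to 2.03; limma, adjusted p = 0.822). A dimmer ACTA2 probe set (243140_at) ran the other way, at 3.41, 3.45 and 3.33 in SP and 3.74, 3.68 and 3.72 in non-SP samples (-0.32, SE 0.11). CALD1, caldesmon, which binds actin and tropomyosin, gave 11.17, 11.00 and 11.09 in SP and 10.78, 11.05 and 10.35 in non-SP samples, a difference of 0.36 (SE 0.19; limma, adjusted p = 0.82). All 11 CALD1 probe sets had a difference above 0, and over the 10 above the controls on all arrays it ran from 0.11 to 0.87. The probe set read for the gene (201615_x_at) is of a type that can cross-hybridise. TAGLN, the actin-associated protein SM22, gave 6.11, 5.84 and 6.16 in SP and 6.28, 6.17 and 6.16 in non-SP samples. All SP values lay below the non-SP values, by 0.003 at the closest (-0.17, SE 0.13). Its probe set 205547_s_at was the reverse, with 5.86, 5.76 and 6.75 in SP against 5.70, 5.28 and 5.21 in non-SP samples (0.72, SE 0.29; limma over all probe sets, adjusted p = 0.674).

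Of the 10 collagen genes, COL4A1 and COL4A2 were strongly expressed and neither they nor any of the others passed the threshold. COL4A1 gave 10.93, 11.88 and 11.88 in SP and 10.51, 11.82 and 10.97 in non-SP samples. COL4A2 gave 9.82, 10.64 and 10.75 in SP and 9.82, 10.55 and 9.80 in non-SP samples. In both genes SP samples 2 and 3 and non-SP sample 2 were the high ones, with the groups overlapping, and the differences were 0.46 (SE 0.40, interval -0.49 to 1.42) and 0.34 (SE 0.31, interval -0.41 to 1.10). The second probe set of each gene differed by 0.59 and 0.25.

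The fibrillar collagens other than COL1A1 read low on the array. COL1A2, a chain of collagen I, gave 3.75, 3.73 and 3.52 in SP and 3.72, 4.06 and 3.78 in non-SP samples (-0.19, SE 0.14), and its other 2 probe sets were not above the controls on all arrays. COL3A1 ran from 3.87 to 4.35 (-0.15), COL5A1 from 4.37 to 4.65 (0.05), and COL5A2, the chromosomal neighbour of COL3A1, from 2.65 to 3.86 (-0.05), above the TrpnX mean on 5 of 6 arrays. COL6A3 exceeded that mean on 2 of 6 arrays (2.54 to 2.94). COL6A2, a chain of the microfibrillar collagen VI and the neighbour of COL6A1, gave 5.50, 5.34 and 5.44 in SP and 5.59, 5.61 and 5.51 in non-SP samples. All SP values were lower, by 0.004 at the closest, and the difference was -0.14 (SE 0.11); its other probe set differed by 0.02.

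For COL1A1 and COL6A1 the result depended on the probe set. The COL1A1 probe set with the highest mean (217430_x_at, a type that can cross-hybridise) gave 7.01, 6.92 and 6.97 in SP and 6.94, 7.12 and 7.15 in non-SP samples, a difference of -0.10 (SE 0.11). By contrast 1556499_s_at gave 3.23, 3.46 and 3.22 in SP and 6.11, 5.85 and 4.85 in non-SP samples. Here all SP values were lower, with means of 3.30 ± 0.14 (SD, n = 3) and 5.60 ± 0.66 (SD, n = 3), and the difference was -2.30 (SE 0.33), 4.94-fold lower in SP. It had the smallest p among the 125 probe sets, and did not pass over all probe sets (limma, adjusted p = 0.178). On the SP arrays it lay 0.31 to 0.61 above the TrpnX mean of the same array. The 5 COL1A1 probe sets all had differences below 0, and the other 4 ran from -0.37 to -0.10. Among 8 COL6A1 probe sets the brightest differed by 0.00 (5.57 to 6.17), while 213428_s_at gave 4.50, 3.95 and 4.40 in SP and 5.29, 5.29 and 4.90 in non-SP samples (-0.88, SE 0.20; limma over all probe sets, adjusted p = 0.383) and 212937_s_at and 212938_at differed by -0.46 and -0.35. All 8 were above the controls on all arrays, and the sample values of those 3 did not overlap.

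FBN1 encodes fibrillin-1, the backbone of extracellular microfibrils, and gave the smallest p of the 41 genes. Its values were 8.35, 8.39 and 8.57 in SP and 7.73, 7.83 and 7.53 in non-SP samples, so that all SP samples were higher and the gap between the groups was 0.52. The means were 8.43 ± 0.12 (SD, n = 3) and 7.70 ± 0.15 (SD, n = 3), a difference of 0.73 (SE 0.13), 1.66-fold with an interval of 1.33 to 2.07. It did not pass over all genes (limma, adjusted p = 0.294; range 0.127 to 0.816 over the alternatives). A second probe set (202766_s_at) gave 8.22, 8.32 and 8.25 in SP and 7.51, 7.87 and 7.58 in non-SP samples, again without overlap (0.61, SE 0.14). The third lay near the controls and overlapped (0.16, SE 0.31). With 1 sample left out the difference ran from 0.65 to 0.80.

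FN1, fibronectin, a provisional matrix glycoprotein and classical EMT marker, gave 5.93, 5.38 and 5.35 in SP and 4.95, 5.26 and 5.36 in non-SP samples, overlapping through non-SP sample 3 (0.37, SE 0.20; limma, adjusted p = 0.837). All 7 FN1 probe sets had differences above 0, and the 6 above the controls ran from 0.22 to 0.94. The largest (211719_x_at, of the type that can cross-hybridise) gave 4.34, 5.29 and 5.18 in SP and 3.50, 4.35 and 4.13 in non-SP samples (0.94, SE 0.33; limma over all probe sets, adjusted p = 0.596), with an overlap of less than 0.01. For the FN1 probe sets above the controls that are not of that type, the differences ran from 0.22 to 0.37. Probe sets of 1 gene read the same RNA and are not replicates. TGFBI, a secreted protein induced by TGF-beta that binds collagen and integrins, gave 4.54, 4.89 and 4.11 in SP and 4.75, 5.85 and 5.19 in non-SP samples. SP sample 2 lay above the lowest non-SP sample, and the difference of -0.75 (SE 0.32, interval -1.52 to 0.02) was the lowest of the 41 (limma, adjusted p = 0.738).

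TNC, tenascin-C, an anti-adhesive glycoprotein of wound and tumour matrix, was the most variable gene of the list, with 5.90, 7.76 and 7.70 in SP and 6.78, 9.01 and 6.21 in non-SP samples. The samples spanned 3.11 log2 units with the groups overlapping, and the difference was -0.22 (SE 0.82). Within the array sets A and B described below it was -0.60 and -1.28. SPARC, osteonectin, gave 4.04, 4.11 and 4.19 in SP and 3.93, 4.30 and 4.32 in non-SP samples (-0.07, SE 0.15), and its second probe set lay below the controls. The small leucine-rich proteoglycan genes DCN (decorin) and LUM (lumican), chromosomal neighbours, were dim or at background: DCN ran from 4.18 to 4.41 with a difference of 0.02, with 3 of 7 probe sets above the controls on all arrays. LUM was above the TrpnX mean on 1 of 6 arrays (2.39 to 2.83). Its groups did not overlap, with the values of both groups near background. POSTN (periostin) was below the mean with all 4 of its probe sets on all arrays.

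The lysyl oxidases cross-link collagen and elastin. LOX gave 6.22, 6.27 and 6.45 in SP and 5.59, 6.82 and 5.34 in non-SP samples, so that the SP values lay inside the range of the non-SP values (0.39, SE 0.37). LOXL2 gave 8.31, 6.38 and 6.66 in SP and 7.69, 6.85 and 7.71 in non-SP samples, with SP sample 1 highest and the other SP samples lowest (-0.30, SE 0.53). Its other 3 probe sets differed by 0.00 to 0.08.

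MMP7, matrilysin, a protease made by epithelial cells, gave 9.63, 9.06 and 9.14 in SP and 9.10, 8.40 and 9.08 in non-SP samples. Non-SP samples 1 and 3 lay just above SP sample 2, and the difference was 0.42 (SE 0.25, interval -0.17 to 1.01; limma, adjusted p = 0.85). TIMP2, an inhibitor of metalloproteinases that also takes part in activating MMP2, gave 11.49, 11.29 and 11.26 in SP and 11.52, 11.32 and 11.57 in non-SP samples (-0.13, SE 0.13), and its 3 probe sets differed by -0.13 to 0.03. TIMP1 ran from 9.29 to 9.92 (-0.18, SE 0.22) and TIMP3, the matrix-bound inhibitor, from 5.28 to 6.24 (0.12, SE 0.29). The other TIMP3 probe sets differed by -0.08, -0.26 and -0.04, the last not above the controls on all arrays. The gelatinase MMP2 (5.24 to 5.51, -0.05) and the membrane-type protease MMP14 (5.78 to 6.03, -0.07) were even across samples with their brightest probe sets. The intervals were -0.35 to 0.26 and -0.36 to 0.22. A dimmer MMP2 probe set above the controls (201069_at) ran from 3.76 to 4.46 and differed by -0.21 (SE 0.19). FAP, the fibroblast surface protease, lay just above the controls (3.01 to 3.39, 0.11).

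AXL, a receptor tyrosine kinase linked to mesenchymal tumour states, gave 8.27, 8.49 and 9.03 in SP and 8.03, 8.28 and 7.94 in non-SP samples. SP sample 1 fell 0.01 below non-SP sample 2, and the difference was 0.51 (SE 0.22, interval -0.01 to 1.04; limma, adjusted p = 0.733). The second AXL probe set (202685_s_at) gave 6.50, 6.13 and 6.40 in SP and 5.76, 5.93 and 5.70 in non-SP samples, all SP values higher (0.55, SE 0.15; limma over all probe sets, adjusted p = 0.472). PDGFRB, the pericyte and fibroblast receptor for PDGF, gave 5.21, 5.43 and 5.40 in SP and 5.74, 5.61 and 5.25 in non-SP samples, overlapping through non-SP sample 3 (-0.19, SE 0.16).

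**Figure D3:**
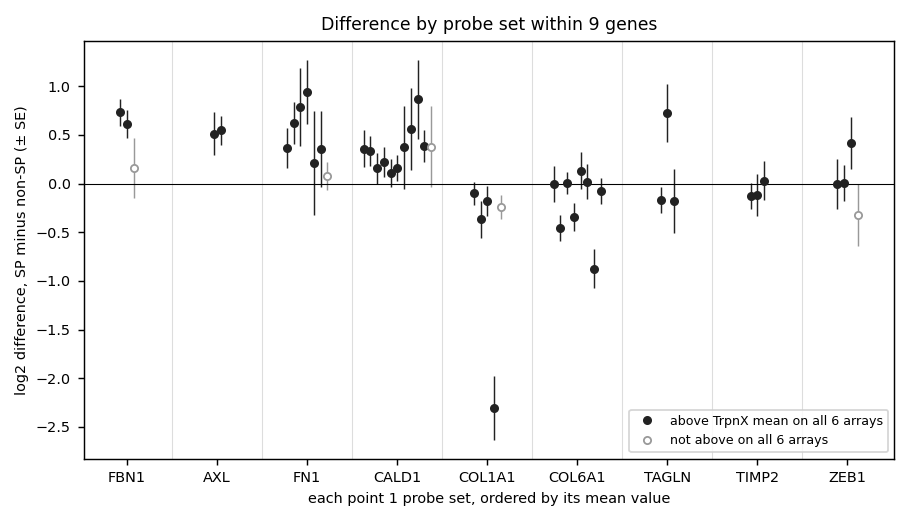
Log2 difference, SP minus non-SP, of every probe set of 9 genes (points, with the limma SE; open grey symbols are not above the TrpnX mean on all 6 arrays). The FN1 and CALD1 probe sets all lie above 0 and those of COL1A1 all below, with 1 COL1A1 probe set at -2.30, whereas COL6A1, TAGLN, TIMP2 and ZEB1 have points on both sides.

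Taking all 125 probe sets one by one, 0 passed an adjusted p of 0.05 over 54613 probe sets in limma, where 0.00183% of all did. At an unadjusted p under 0.05, 6 (4.8%) were higher in SP samples and 5 (4%) lower, where 3.79% and 3.52% of all probe sets were. The 6 were 2 each of FBN1 and FN1 and 1 each of AXL and TAGLN, and the 5 were 3 of COL6A1 and 1 each of COL1A1 and ACTA2. Of the 23 genes with several probe sets above the controls, 10 had differences of a single sign over those probe sets and 13 had both signs.

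The samples also parted in a way that crossed the sort. The first principal component of all genes set SP sample 1 with non-SP samples 1 and 3 (set A) against SP samples 2 and 3 with non-SP sample 2 (set B), and held 45.8% of the variance. These sets are not groups of the study and were read from the same values, so what follows is a description. Set A lay wholly above set B for 5 of the 41 genes (12.2%; 13.7% of all genes): VIM, S100A4, LOXL2, TIMP1 and TIMP2. It lay wholly below for 6 (14.6%; 13.1% of all genes): ACTA2, COL4A1, COL4A2, TNC, LOX and AXL. VIM averaged 11.63 in set A and 10.75 in set B, S100A4 13.21 and 12.28, COL4A1 10.80 and 11.86, COL4A2 9.81 and 10.65, and TNC 6.30 and 8.15. What separates the sets was not tested.

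**Figure D4:**
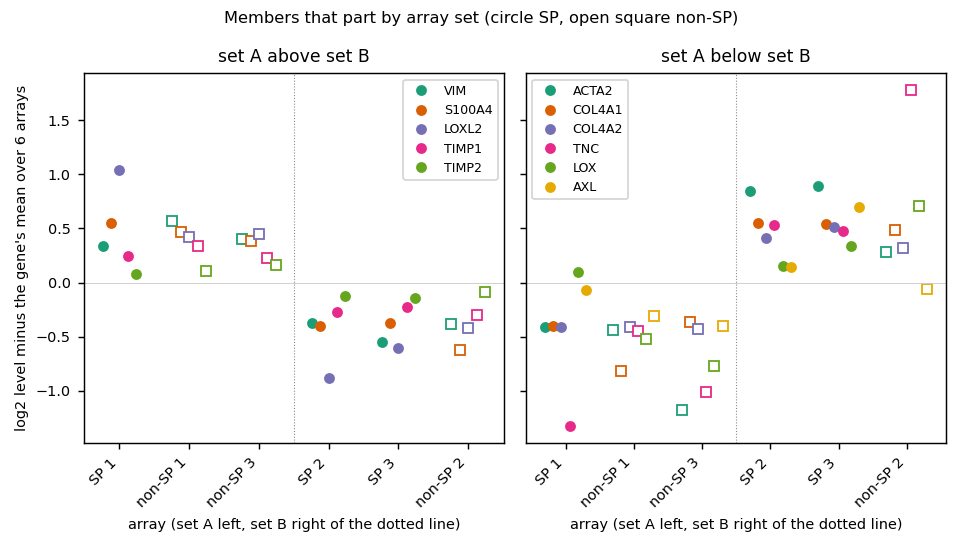
Log2 level of the 11 genes for which the array sets do not overlap, each centred on its own mean over 6 arrays; filled circles are SP and open squares non-SP samples. The 5 genes in the left panel, VIM among them, are higher in set A, and the 6 in the right panel, with COL4A1 and COL4A2, are higher in set B, whichever side of the sort the sample came from.

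Within set A, SP minus non-SP was 0.71 for FBN1, 0.54 for MMP7, 0.29 for AXL and -0.43 for TGFBI; within set B it was 0.64, 0.70, 0.48 and -1.35. Each set holds 1 sample of one group. The sign was the same in both sets for 28 of the 41 genes (68.3%), these 4 among them, and for 56.5% of all genes. With the set as a block, FBN1 differed by 0.68 (SE 0.12; limma, adjusted p = 0.161), MMP7 by 0.62 (SE 0.11; adjusted p = 0.153), TGFBI by -0.89 (SE 0.31; adjusted p = 0.398) and TNC by -0.94 (SE 0.22; adjusted p = 0.236), and 0 of the 41 genes passed. For COL4A1 and COL4A2 the differences under the block were 0.13 and 0.08, against 0.46 and 0.34 without it, and for VIM -0.12 against -0.40.

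Of 137 other matrix and EMT genes listed by role, 130 were measured with a single symbol, and 0 passed an adjusted p of 0.05 in limma. At an unadjusted p under 0.05, 9 were higher and 2 lower in SP samples, where 3.07% and 3.71% of all genes were, and the median difference of the 130 was -0.04. The counts by list below are read against the same shares and are too small to set a list apart. Among 15 other EMT regulators and epithelial counterparts, 1 was higher and 0 lower: CDH1, the E-cadherin gene repressed by ZEB1 and SNAI1, gave 10.14, 10.72 and 10.73 in SP and 9.16, 10.25 and 9.82 in non-SP samples, overlapping through non-SP sample 2 (0.79, SE 0.31; adjusted p = 0.709). The transcription factor gene TCF4 differed by -0.99 (SE 0.48) and OVOL1, a promoter of epithelial fate, by -0.20 (SE 0.12). Among 20 other collagens, 1 was higher: COL4A4, a chain of the glomerular type of collagen IV, gave 7.14, 7.59 and 7.36 in SP and 6.20, 6.72 and 5.93 in non-SP samples, without overlap (1.08, SE 0.23; adjusted p = 0.425). Its partner chain COL4A3 differed by 0.38 (SE 0.19) and COL18A1 by 0.37 (SE 0.19).

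In the basement membrane list 1 of 13 was higher: LAMB3, a chain of laminin-332, gave 9.73, 10.11 and 10.33 in SP and 8.97, 9.47 and 8.77 in non-SP samples, without overlap (0.99, SE 0.24; adjusted p = 0.48). The linker proteins NID1 and NID2 differed by 0.26 (SE 0.11) and 0.34 (SE 0.15). Among 26 other glycoproteins and proteoglycans 2 were higher and 1 lower. EFEMP1, fibulin-3, gave 6.17, 6.97 and 4.62 in SP and 3.39, 3.03 and 3.81 in non-SP samples, without overlap but with a wide spread (2.51, SE 0.57; adjusted p = 0.467). The non-SP values lay near the controls, where RMA compresses differences, so the size of this difference is uncertain. FBLN1, fibulin-1, gave 7.12, 6.52 and 6.25 in SP and 8.10, 7.48 and 7.70 in non-SP samples, all SP values lower (-1.13, SE 0.26; adjusted p = 0.474). The other higher gene was OGN, osteoglycin, above the controls on 4 of 6 arrays. THBS1, thrombospondin-1, differed by 1.85 (SE 0.82) and overlapped.

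In the list of 16 genes of collagen modification 2 were higher: the collagen chaperone SERPINH1 (0.39, SE 0.12) and the lysyl hydroxylase PLOD3 (0.41, SE 0.17), both without overlap, while LOXL4 differed by -0.41 (SE 0.23). Of 20 other proteases and inhibitors 2 were higher. These were PLAU, the urokinase gene (1.10, SE 0.46; limma, adjusted p = 0.733), whose groups overlapped, and MMP12, which was above the controls on 1 of 6 arrays. MMP24 and MMP10 differed by -0.24 and -0.19. Over the 130 genes, set A lay wholly above set B for 25 and wholly below for 22, where 13.7% and 13.1% of all genes did. Of the genes named from these lists, TCF4, TPM2 and CNN3 were among the 25. PLAU, CDH1, THBS1, NID2, COL18A1 and TPM1 were among the 22. TCF4 differed by -0.45 within set A and -0.90 within set B. Of 11 contractile genes 0 had an unadjusted p under 0.05, and the differences of TPM1, TPM2 and CNN3 were 0.12, -0.14 and -0.23. Among 9 receptors and ligands related to AXL and PDGFRB 1 was lower: PROS1, protein S, a ligand of the AXL family, gave 7.27, 7.53 and 7.50 in SP and 8.43, 8.08 and 8.23 in non-SP samples, all SP values lower (-0.81, SE 0.14; adjusted p = 0.285). The AXL relative MERTK differed by -0.64 (SE 0.35) and PDGFRA by -0.26 (SE 0.18).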

How the data were processed

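RNA of 3 SP and 3 non-SP samples was amplified from small amounts and hybridised to 1 array each, per the labels' protocols. The authors deposited log2 values, 1 for each probe set, made with R 2.8.1, affy and RMA, per the submitters' processing notes; RMA sets all arrays to 1 distribution and compresses differences near background. Of 54675 probe sets, 62 controls were left out. Of the rest, 41091 carried 1 gene symbol, 1801 several and 11721 none here, and 41037 matched RefSeq (GRCh38.p14) by Entrez ID with 0 symbols changed. Each gene was read from its probe set of highest mean over the 6 samples.

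SP minus non-SP was estimated by limma 3.58.1 under R 4.3.3 (lmFit and eBayes, two-sided, no block) over all 19775 genes and, separately, all 54613 probe sets, with Benjamini-Hochberg adjustment and a threshold of 0.05; the fit was tested on simulated data. Python 3.11.15, pandas 2.3.3 and matplotlib 3.10.9 were used. The alternatives were the replicate block, the array set as a block or alone, the mean of probe sets, every probe set, filters, cyclic loess, median centring, a trend and robust prior, array weights and each sample left out. The genes and lists were chosen with earlier results of these data known. All 41 genes are named; printed array by array are the 2 of smallest p per role above the controls, plus VIM, CDH2, FN1, SNAI2, ZEB1, MMP7 and SPARC, and of each other list up to 3 by p. Others given array by array (S100A4, COL4A1, COL4A2, COL1A1, TAGLN, TNC and single probe sets) or singled out (TIMP1, COL6A1, OGN, MMP12, DES, CSPG4, MFAP5) were chosen after their values were seen.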

Additional observations from a re-analysis of the deposited data

How the results depend on the processing

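With 3 arrays a group, the number of arrays and, for genes near the TrpnX controls, the signal over background limit every difference. The count of 0 genes past an adjusted p of 0.05 held in all 16 other settings with a test. That covers the members tested in each setting and the other matrix genes (smallest adjusted p of a member 0.127, for FBN1 with array weights in limma). The filter on the controls tested 35 of the 41 genes, and the filter on the median level 14. FBN1 was the single gene with an unadjusted p under 0.05 in the main setting. The count of genes higher in SP samples was 3 with probe sets averaged (FBN1, AXL and CALD1), 2 with median centring, 5 with array weights, 2 with the array set as a block and 4 with every probe set, and 1 to 5 with 1 sample left out (3 without SP replicate 1, namely FBN1, ACTA2 and AXL, and 5 without non-SP replicate 2, these and CALD1 and LOX). The count of genes lower was 1 with the mean of probe sets (COL1A1), 1 with an intensity trend and robust prior, 1 with array weights, 2 with the array set as a block and 3 with every probe set, and 0 to 2 with 1 sample left out (2 without non-SP replicate 1, SNAI1 and TGFBI, and 1 each without SP replicate 1, LOXL2, and SP replicate 2, TGFBI). The array set was read from the same values, so the counts with it as a block are a description.

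The median difference over the 41 genes was 0.0031 with cyclic loess, 0.0532 with the array set as a block, 0.0185 over every probe set and 0.12 within set A, and ran from -0.0675 to 0.0219 with 1 sample left out. The replicate block, the filters, the trend and robust prior and every probe set leave the difference of a gene's chosen probe set as it is. They could therefore not turn its sign. The sign, read from 1 probe set per gene or the mean of its probe sets, held in every setting with a test for 25 of the 41 genes. It turned for ZEB1 with the mean of probe sets (0.0243), cyclic loess (0.0094), median centring (0.0307) and the set block (0.13); for ZEB2 (0.05), S100A4 (0.18), LOXL2 (0.14) and TIMP1 (0.0023) with the set block; for TAGLN (0.12), COL6A1 (-0.20) and TIMP3 (-0.0666) with the mean of probe sets; for COL6A1 (-0.12), TNC (0.56) and DCN (-0.0040) with array weights; and for MMP2 (0.0031) with cyclic loess. With 1 sample left out the sign also turned, in at least 1 of 6 cases, for 14 genes, with the ranges of TWIST1 (-0.0140 to 0.22), ZEB1 (-0.20 to 0.21), ZEB2 (-0.17 to 0.13), CDH2 (-0.80 to 0.23), S100A4 (-0.50 to 0.0469), COL5A1 (-0.0308 to 0.11), COL5A2 (-0.38 to 0.23), COL6A1 (-0.13 to 0.17), TNC (-0.78 to 0.62), POSTN (-0.0210 to 0.21), DCN (-0.0485 to 0.0676), LOXL2 (-0.90 to 0.0657), MMP2 (-0.12 to 0.0097) and TIMP3 (-0.15 to 0.32). The cause of these changes was not tested.

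The labels do not tell whether the replicate numbers pair the samples. The deviations of same-numbered samples from their group means correlated at 0.45, 0.38 and -0.21, and SP sample 3 correlated best with non-SP sample 2 (0.40). These correlations cannot decide the question, since the means rest on 3 samples and the deviations also carry the split by array set. With the replicate block 0 of the 41 genes passed, and 1 was lower at an unadjusted p under 0.05 (TGFBI) where 0 were without it.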
